A study of Mus musculus with 24 samples.

Results

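Cohesin peaks of an untreated Rad21-degron line were set against those of its parental line, to find which cohesin sites differed in the tagged line before any depletion. The members were chosen by their labels: 5 of the 24 samples, all of them Rad21 chromatin immunoprecipitation with sequencing (ChIP-seq) without the auxin IAA, in 3 parental and 2 Rad21-degron libraries. The parental cells were a v-Abl transformed mouse pro-B line with the genotype Emu-Bcl2 and RAG2 deficient. The degron cells had the same background plus Rad21degron, a form of Rad21 that is directed to degradation when IAA is given. Both lines had been held for 4 days in 3 µM STI-571, which blocks the Abl kinase, and all immunoprecipitations used the same Rad21 antibody from Abcam. Cells of HCT116, a human colorectal carcinoma line, were spiked into both degron libraries and into parental replicates 2 and 3, but not into parental replicate 1. The labels do not say whether replicates came from separate cultures, nor from how many clones each line was derived, so the p-values below measure the spread between these libraries, which may be technical. Line and library preparation cannot be told apart.

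Cohesin is a ring made of the SMC subunits Smc1a and Smc3, closed by Rad21 and bound by a Stag subunit. It extrudes loops of chromatin and accumulates where CTCF, a zinc finger protein that binds DNA in a set orientation, stops it. It is also found at active promoters and enhancers without CTCF. In pro-B cells cohesin-driven loop extrusion brings the distant variable gene segments of the immunoglobulin heavy chain locus to the RAG recombinase.

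A site was defined as a union of overlapping mouse peaks of the 5 lists, and a stretch of each of 6 named sites is printed here to show the kinds of site described below. They were picked from the named sites for a motif match, so the motifs in them are no finding. Capitals mark a match to a CTCF core searched on both strands, or to a PU.1-type Ets element, searched as GAGGAAGT on both strands. In windows of 300 bp, the CTCF core was present at 46.9% of CTCF sites, at 27.9% of all union sites and at 5.02% of windows placed 5000 bp from them, and the PU.1-type element at 2.03%, 3.87% and 1.88%. All sequences are from the plus strand of NCBIM37 (mm9). The first 3 carry the CTCF core and were called in the parental line only (an intron of Astn1, chr1:160584459-160584558, core on the minus strand) or ranked lower in the degron line (an intron of Tcfeb, chr17:47881817-47881916, core on the plus strand, and an intergenic site whose nearest gene was Prdm11, chr2:92916504-92916603, core on the minus strand). The other 3 were called in the degron line only (an intron of Man2a1, chr17:64964908-64965007, with a CTCF core on the minus strand) or ranked higher in the degron line (an intergenic site whose nearest gene was Cited2, chr10:16372382-16372481, with the PU.1-type element on the plus strand, and an intron of Zfp286, chr11:62570372-62570471, with a CTCF core on the plus strand).
Astn1, parental only: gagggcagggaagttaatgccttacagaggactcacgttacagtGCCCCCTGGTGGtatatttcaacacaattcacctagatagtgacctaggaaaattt
Tcfeb, rank lower: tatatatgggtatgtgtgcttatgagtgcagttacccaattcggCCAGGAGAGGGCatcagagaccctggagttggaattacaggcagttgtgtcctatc
Prdm11, rank lower: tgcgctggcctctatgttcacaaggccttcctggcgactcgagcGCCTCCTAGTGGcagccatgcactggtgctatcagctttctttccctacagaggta
Man2a1, degron only: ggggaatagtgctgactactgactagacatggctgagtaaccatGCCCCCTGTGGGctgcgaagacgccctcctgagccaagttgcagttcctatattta
Cited2, rank higher: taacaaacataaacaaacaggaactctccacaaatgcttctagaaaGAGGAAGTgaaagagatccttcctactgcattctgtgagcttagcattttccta
Zfp286, rank higher: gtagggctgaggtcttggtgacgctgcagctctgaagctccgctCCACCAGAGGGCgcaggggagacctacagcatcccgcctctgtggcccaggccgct

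The untreated degron lists were shorter and their peaks narrower than most parental ones. Parental replicates 1, 2 and 3 held 67810, 43925 and 29724 mouse peaks, and degron replicates 1 and 2 held 32913 and 22085. The lines overlapped, because the longer degron list exceeded parental replicate 3. The difference in mean log2 peak number was -0.73 (exact two-sided permutation p = 0.3), and -0.42 with the spike-in libraries alone (exact permutation p = 0.667). Mean peak width was 607, 419 and 363 bp in the parental libraries against 299 and 258 bp in the degron libraries, so that width did not overlap between lines. Its log2 difference was -0.70 (exact two-sided permutation p = 0.2 over 3 against 2 libraries), and -0.13 when the spike-in lists were ended at equal numbers of human peaks (exact permutation p = 1). Merged peaks covered 41.1, 18.4 and 10.8 Mb in the parental libraries and 9.83 and 5.69 Mb in the degron libraries, a log2 difference of -1.43 (exact permutation p = 0.2). With 3 against 2 libraries no p below 0.1 is possible, with 2 against 2 none below 0.33, and Benjamini-Hochberg adjustment over the 7 planned tests gave 0.4 for each of them. Peak lists hold no read counts, so the depth behind every value is unknown.

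Human peaks in the same libraries came from cells without the tag and gave a scale for the mouse peaks. Parental replicates 2 and 3 held 9640 and 1748 human peaks, and degron replicates 1 and 2 held 11861 and 14878. Mouse peaks per human peak numbered 4.56 and 17 in the parental libraries and 2.77 and 1.48 in the degron libraries. The lines did not overlap, and the log2 difference of -2.12 corresponds to a 4.34-fold lower ratio in the degron line (exact two-sided permutation p = 0.33, the smallest that 2 against 2 libraries allow). The parental values themselves lay far apart, and the labels do not give the share of HCT116 cells added to each library. After each spike-in list was ranked by -log10 p and ended at the same 1748 human peaks, 20916 and 29724 mouse peaks remained in the parental lists against 10048 and 5194 in the degron lists. The list of parental replicate 3 set this limit and was itself not shortened.

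CTCF sites, defined as the 33715 sites with a peak in all 3 CTCF libraries of the parental line, held most cohesin peaks of every library but parental replicate 1. Their share was 46.9%, 63.8% and 72.4% in the full parental lists and 64.9% and 75.0% in the full degron lists, a difference of 8.91 percentage points upward in the degron line (exact two-sided permutation p = 0.4), and 1.83 points without parental replicate 1. The direction was the opposite at equal list length. When every list was shortened to its 22085 peaks of highest fold enrichment, the share was 93.3%, 91.2% and 81.4% in the parental line and 76.9% and 75.0% in the degron line. The shortened degron lists thus held fewer CTCF sites than every parental list, by 12.7 points on average (exact two-sided permutation p = 0.2, and p = 0.33 for a difference of -10.4 points with the spike-in libraries alone). Reducing each of these peaks to its central 200 bp gave 89.9%, 90.2% and 80.9% against 76.7% and 75.1%, a difference of -11.1 points (exact permutation p = 0.2). Among the shortened lists the share followed the length of the deposited list in all but 1 neighbouring pair, parental replicate 3 and degron replicate 1; the part of list length in the remaining difference was not tested. Promoters, within 1 kb of an annotated transcript start, held 20.5%, 24.0% and 24.1% of the full parental lists and 22.5% and 19.4% of the degron lists, which overlapped (exact permutation p = 0.4).

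**Figure D1:**
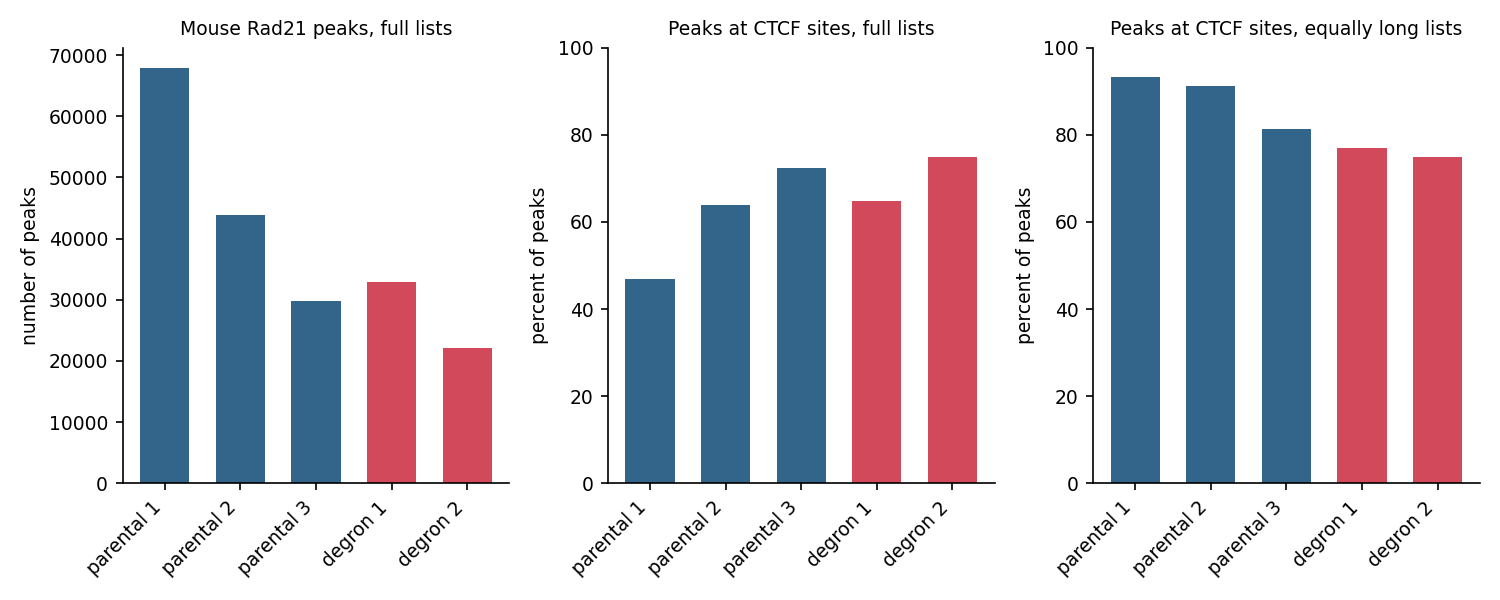
Bars give, for each library (parental in blue, Rad21-degron in red, no IAA), the number of mouse Rad21 peaks, the percent of peaks at CTCF sites in the full lists, and the same percent after every list was shortened to 22085 peaks. The share at CTCF sites was lowest in parental replicate 1 in the full lists (46.9%) and lowest in the degron replicates in the shortened lists (76.9% and 75.0%).

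Equally long lists shared fewer sites between lines than within them. Of the sites held by either list of a pair, both held 79.0%, 66.0% and 66.7% in the 3 parental pairs and 61.4% in the degron pair. The 6 pairs with 1 library of each line shared 54.8% to 57.8%, below all 4 pairs within a line. The mean was 56.1% between lines and 68.3% within them, a difference of -12.2 points (exact two-sided permutation p = 0.1 over the 10 assignments of the 5 libraries, the smallest possible). With the spike-in libraries alone it was -8.32 points (exact permutation p = 0.33).

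The human peaks of the same 4 spike-in libraries did not separate by line. Cut to 1748 peaks each, human lists shared 25.6% between lines and 25.3% within them, a difference of 0.345 points (exact permutation p = 0.33). Mouse lists cut to the same number shared 39.3% between and 50.2% within lines, a difference of -10.9 points (exact permutation p = 0.33). This mouse difference came mainly from the parental pair at 57.7%, since the degron pair at 42.7% lay at the level of the most alike pair of different lines, 43.0%. The same number of peaks is a larger part of a human list than of a mouse list, and the smallest human list held no more than these 1748.

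**Figure D2:**
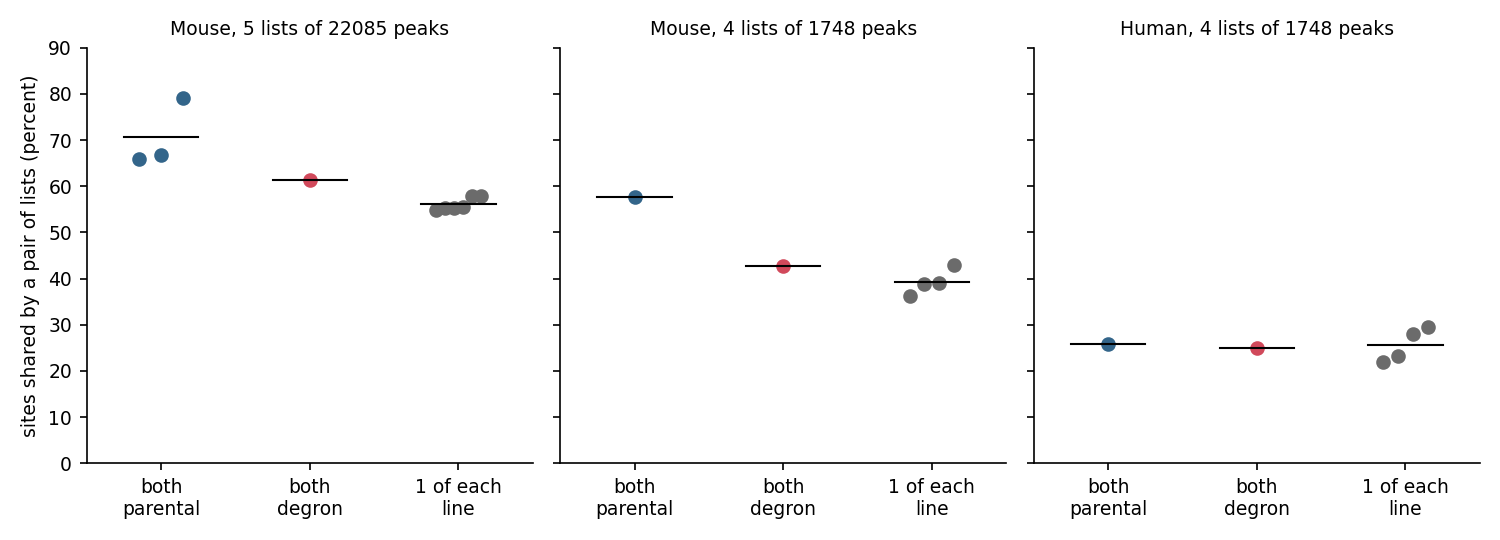
Each point is 1 pair of libraries and gives the percent of sites of either list that both hold, for mouse lists of 22085 peaks, and for mouse and human lists of 1748 peaks of the spike-in libraries; black lines are means. In mouse the pairs with 1 library of each line lie lowest on average (56.1% against 68.3% within lines for the longer lists), and in human the means nearly coincide (25.6% and 25.3%).

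Of the 70867 union sites of the full lists, 15918 were called in all 5 libraries, 4027 in every parental and no degron library, and 193 in both degron and no parental library. These are 5.68% and 0.272% of the union. The spike-in libraries alone gave 4497 parental-only sites (8.66% of 51907) and 797 degron-only sites (1.54%). The largest single pattern was a peak in parental replicate 1 alone, at 25722 sites. Both counts depended on single libraries: without parental replicate 3 there were 12461 parental-only sites and without degron replicate 1 there were 8579, while degron-only sites numbered 797 without parental replicate 1, 656 without degron replicate 1 and 1771 without degron replicate 2.

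The parental-only sites of the full lists were weaker than the common ones but included strong CTCF sites. Their median percentile of fold enrichment was 66.1, 46.5 and 29.4 in the 3 parental lists, against 87.7, 80.8 and 71.0 for sites of all 5 libraries. On the chromosomes with annotation, 65.1% of them lay at CTCF sites and 27.1% at promoters. The 6 strongest were all at CTCF sites, and none had a Rad21 peak in any of the 3 libraries of the CTCF-depleted line or in either library of the IAA-treated Rad21-degron line.

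The strongest, chr1:160584055-160585208, lay in an intron of Astn1, which encodes a neuronal adhesion protein, and its nearest transcript start belonged to Pappa2. Its fold enrichment by the authors' caller was 21.4, 14.7 and 8.51 in the parental lists, at percentiles 98.6, 93.5 and 92.5 of those lists, with no peak in either degron list. The other 5 lay in 6330578E17Rik (chr1:37476149-37476899, exonic), in an intron of Bfsp2, a lens filament gene (chr9:103336357-103337113), in the intergenic space beside Ubash3b (chr9:40990474-40991303), and at 2 places near Gm11077 (chr6:140801768-140802638 and chr6:140738249-140738993). The Bfsp2 site had fold enrichments of 14.7, 13 and 7.30, and the Ubash3b site 14.4, 15.9 and 6.77. Each of the 6 stood at percentile 83.3 or higher in every parental list, and neither degron list held a peak there.

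The 193 degron-only sites were few, weak and far from transcript starts, although 30.9% were intronic and 8.29% exonic. Their median percentile was 34.9 and 28.3 in the 2 degron lists. On the annotated chromosomes 1.10% lay at CTCF sites, 8.84% at promoters and 91.2% at neither, against 42.8% at neither over all union sites. Their median GC content was 40.6% and their median distance to a transcript start 64318 bp, against 46.4% and 11235 bp over all union sites. The strongest was chr14:99286281-99286550, intergenic with Mzt1 as nearest gene, at fold enrichments of 6.85 and 5.38. The intronic site in Man2a1, a gene for a Golgi mannosidase (chr17:64964788-64965107), had fold enrichments of 5.21 and 5.09, and carried a CTCF core, as 1 of the 6 strongest sites did in each of the degron-only and parental-only classes. Intergenic sites near Syt1 (chr10:108625238-108626178), Eea1 (chr10:95610890-95611228), Klra1 (chr6:130488297-130488700) and Cdc73 (chr1:144585340-144586037) made up the rest.

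At equal list length the classes were of opposite kind. Their sizes were similar, which lists of the same length favour by construction. Of 33806 union sites, 1717 (5.08%) were called in the parental line only and 1335 (3.95%) in the degron line only. With the spike-in libraries alone these were 2134 of 34030 (6.27%) and 1671 (4.91%). They included 1703 of the 1717 and all 1335 of the 5-library calls. This recurrence follows from the design and is no support, since the spike-in setting holds a subset of the same lists. Of the parental-only sites 93.6% lay at CTCF sites and 42.1% carried a CTCF core, counted on the annotated chromosomes. Of the degron-only sites 19.3% lay at CTCF sites, 21.3% at promoters and 66.6% at neither, and 8.37% carried a CTCF core. Sites common to all 5 shortened lists were at CTCF in 97.1% of cases.

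Other sequence features were counted in these classes. The PU.1-type element was present at 6.62% of degron-only and 2.47% of parental-only sites, and an Ebf1 palindrome at 3.11% and 1.27%. An E-box (CAGCTG) was present at 23.3% and 16.3%, a Runx element (TGTGGT) at 30.2% and 25.9%, and an interferon-type Irf repeat at 7.74% and 3.98%. The shares over all union sites of the shortened lists were 3.45%, 1.43%, 17.7%, 24.6% and 4.63%. The other motifs searched were an Ets element (ACCGGAAG), present at 2.31% and 0.784%, an Nrf1 element at 0.558% and 0.121%, and an AP-1 element (TGANTCA) at 7.97% and 8.50%. At CTCF sites alone the shares of degron-only and parental-only sites were 2.48% and 2.45% for the PU.1-type element, 1.24% and 1.09% for the Ebf1 palindrome and 23.6% and 26.4% for the Runx element. Away from CTCF, over 1012 and 106 sites, they were 7.61% and 2.83% for the PU.1-type element, 3.56% and 3.77% for the Ebf1 palindrome and 31.8% and 18.9% for the Runx element. Of 1764 sites away from CTCF called in all 5 full lists, 7.03%, 2.78% and 27.4% carried these elements. The degron-only share of the PU.1-type element was thus near that of common sites away from CTCF. The E-box and Irf shares are not split by CTCF here. PU.1, Ebf1, E proteins, Runx1 and Irf factors are regulators of the B lineage, but a match of letters is not a bound site. Of the degron-only sites 41.5% lay within 5 kb of a site called in all 5 full lists, against 15.6% of parental-only sites.

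Most of these degron-only sites were not absent from parental cells but stood lower in the parental lists. In the full lists 91.8%, 66.4% and 27.0% of the 1335 had a peak in parental replicates 1, 2 and 3, and 102 (7.64%) had none in any of them. The reverse was less complete. Of the 1717 parental-only sites 40.9% had a peak in the full list of degron replicate 1, which was the longer degron list, and none could in degron replicate 2, whose list was not shortened.

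Libraries that took no part in the choice of sites were then read at the equal-length classes. Rad21 peaks of the CTCF-degron line after IAA, in which CTCF is degraded, were present at 76.0%, 66.9% and 37.8% of degron-only sites and at 26.4%, 22.2% and 13.6% of parental-only sites, in replicates 1, 2 and 3. The classes did not overlap, but they also differed in CTCF. Among sites away from CTCF the same libraries had a peak at 77.7%, 67.3% and 36.1% of 1075 degron-only sites and at 71.2%, 68.5% and 61.3% of 111 parental-only sites, which overlapped. Among sites at CTCF the values were 69.2%, 65.0% and 44.6% of 260 degron-only sites and 23.3%, 19% and 10.3% of 1606 parental-only sites, with no overlap. Sites common to all 5 shortened lists lay between these classes at CTCF, at 56.4%, 53.6% and 37.8%. With classes made from the spike-in libraries alone the values at CTCF were 59.3%, 54.8% and 37.7% of degron-only and 23.2%, 18.5% and 10.2% of parental-only sites. None of these differences was tested. In the Rad21-degron line after IAA, the 2 libraries had a peak at 11.5% and 2.92% of degron-only sites and at 1.22% and 0.175% of parental-only sites. Away from CTCF these values were 8.19% and 1.30% of degron-only and 5.41% and 0.901% of parental-only sites, which overlapped. At CTCF they were 25.4% and 9.62% against 0.934% and 0.125%. These differences were not tested either.

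**Figure D3:**
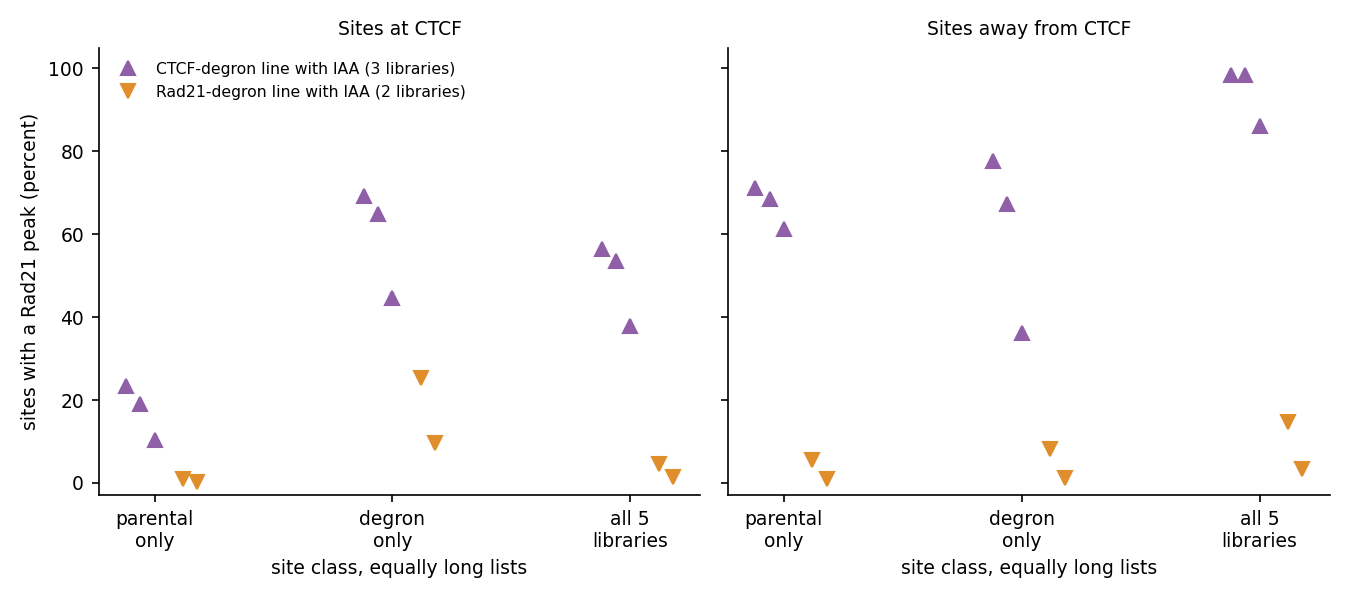
Triangles give, per library, the percent of sites of each equal-length class with a Rad21 peak in the CTCF-degron line with IAA (purple) and in the Rad21-degron line with IAA (orange), for sites at CTCF (left) and away from it (right). At CTCF the degron-only sites lie above the parental-only sites in all 3 CTCF-degron libraries (69.2%, 65.0% and 44.6% against 23.3%, 19% and 10.3%), and away from CTCF the classes overlap.

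At the 15918 sites called in all 5 libraries, strength was compared as the percentile rank of fold enrichment among these same sites. The degron ranks lay above all parental ranks at 2960 sites (18.6%) and below all of them at 3108 (19.5%), and with a difference of at least 20 points at 1489 (9.35%) and 1547 (9.72%). Spearman's rho over these sites was 0.935, 0.839 and 0.858 between parental libraries, 0.746 between the degron libraries and 0.654 to 0.780 between lines. By this measure degron replicate 1 was closer to parental replicates 1 and 2 (0.780 and 0.772) than to degron replicate 2. Over the human sites of the spike-in libraries rho was 0.346 for the parental pair, 0.464 for the degron pair and 0.196 to 0.598 between lines. At the 1378 human sites common to the 4 spike-in libraries, 16.9% ranked higher and 16.0% lower in both degron libraries, against 23% and 23.6% of 16100 mouse sites in the same libraries.

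The ranks differed most at common sites away from CTCF. The 1252 common sites at neither CTCF nor a promoter had mean ranks of 9.61, 11.4 and 18.6 in the parental libraries and 23.2 and 26.6 in the degron libraries. They stood 11.7 points higher in the degron line without overlap (exact two-sided permutation p = 0.2), and 38.5% of them ranked higher against 4.31% lower. Without parental replicate 1 these shares were 40.3% and 6.79%, against 23% and 23.6% of all common sites. Promoter sites without CTCF averaged 10.4, 9.48 and 19.8 against 16.1 and 21.3, which overlapped (difference 5.49, exact permutation p = 0.3). CTCF sites outside promoters differed by -1.15 points and CTCF sites at promoters by -2.85 points (exact permutation p = 0.5 and p = 0.4). Sites away from CTCF are the weakest of the common sites in every library, and parental replicate 3, the shortest parental list, had the highest parental ranks there.

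**Figure D4:**
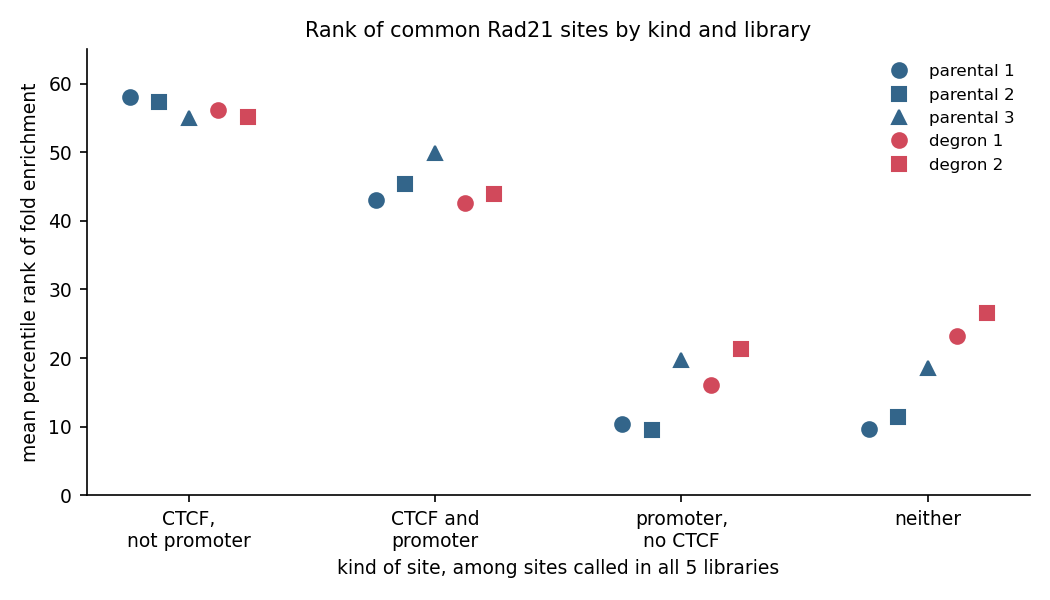
Points give each library's mean percentile rank of fold enrichment over common sites of 4 kinds (parental in blue, Rad21-degron in red). Of the 4 kinds, sites at neither CTCF nor a promoter show both degron libraries (23.2 and 26.6) above all parental libraries (9.61 to 18.6).

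GC content moved with this difference. Over 5 groups of equal GC rank, common sites away from CTCF stood 15.6 points higher in the degron line in the lowest group (GC up to 41.2%), then 13.9, 11 and 7.29, and 4.87 in the highest (GC from 54.2%). The sign was the same in all 5 groups. Spearman's rho between GC content and rank difference was -0.289 over 1764 sites away from CTCF and -0.083 over 13396 sites at CTCF, and the part of GC in the results was not tested.

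The sites that ranked lower in the degron line were at CTCF somewhat more often than common sites in general. On annotated chromosomes 88.4% of all common sites lay at CTCF. The share was 96.8% of the 2986 that ranked lower and 78.7% of the 2783 that ranked higher. With a difference of at least 20 points the shares of lower and higher sites were 99.4% and 76.1%. The largest downward difference was in an intron of Tcfeb, which encodes a regulator of lysosome genes (chr17:47881640-47882644). It ranked at 75.1, 77.2 and 74.5 in the parental libraries and at 4.49 and 2.49 in the degron libraries, with fold enrichments of 14.9, 13.6 and 7.18 against 3.88 and 3.80. An intergenic site whose nearest gene was Ly6e, a gene for a small membrane-anchored protein (chr15:74798387-74799347), ranked at 77.2, 77.1 and 69.1 against 2.99 and 2.49. Sites beside Nrd1 (chr4:108648843-108649617), Prdm11 (chr2:92916122-92916973) and Dennd4a (chr9:64632577-64633273) and in an intron of Iqsec1 close to a transcript start (chr6:90687200-90687972) differed by -68.7, -68.2, -66.9 and -66.0 points. All 6 had a CTCF peak in the 3 parental CTCF libraries. In degron replicate 2 their fold enrichment was 3.80 to 4.05, close to the lowest of that list (3.80), and in degron replicate 1 it was 3.79 to 4.47, against a lowest value of 3.65.

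The sites that ranked higher were more mixed. The largest difference was at an intergenic site 1070522 bp from the nearest start, that of the coactivator gene Cited2 (chr10:16372159-16372865), which ranked at 18.3, 7.13 and 4.54 in the parental libraries and at 82.0 and 81.3 in the degron libraries. It had no CTCF peak in any CTCF library, carried the PU.1-type element and had a Rad21 peak in all 3 CTCF-depleted libraries. A second site without CTCF lay near Spef2, a sperm flagellar gene (chr15:9701797-9702656), at 2.15, 1.04 and 7.33 against 72.7 and 72.6. The other 4 were CTCF sites, in an intron of Zfp286 (chr11:62570150-62570841), near 1700012B07Rik (chr11:109753131-109753858), in an intron of Cacna1d, a calcium channel gene (chr14:30922232-30922719), and at an exon of Trdn, a muscle gene (chr10:32915505-32916674). They differed by 68.1, 67.2, 63.9 and 61.5 points.

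Genes of the B lineage were read next, as sites in the gene or within 5 kb. The 21 of 22 regulators found in the annotation held 332 union sites, of which 61 were called in all 5 libraries, 21 (6.33%) in the parental line only and 0 in the degron line only, against 5.68% and 0.272% of all sites. At equal length 5 of 120 sites (4.17%) were parental only and 10 (8.33%) degron only, against 5.08% and 3.95% of all sites. The median difference of the 61 common sites was 8.63 points, against 0.16 over all common sites. Among the 61, 14 (23.0%) ranked higher and 3 (4.92%) lower in the degron line, against 18.6% and 19.5% of all common sites. Without parental replicate 1 these were 14 (23%) higher and 8 (13.1%) lower, against 23% and 23.6% of all common sites, so that the share of higher sites equalled the background in that setting, and the median was 4.42. Common sites at these genes were less often at CTCF (38 of 61) than common sites in general (88.3%), and their median was 7.36 points at CTCF and 11 away from it.

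Ebf1, which encodes a transcription factor that commits cells to the B lineage, held the most sites. Of its 69 union sites 9 were common, and 4 of these ranked higher and 0 lower in the degron line. Over all common sites 18.6% ranked higher and 19.5% lower. The largest difference was at chr11:44761538-44766951, a CTCF site inside the gene, at 18.9, 28.0 and 41.4 in the parental libraries and 84.4 and 84.2 in the degron libraries. The degron libraries stood far above all parental ones there, while the CTCF site at the far end of the gene (chr11:44820535-44822455) had high ranks in all 5 libraries, 88.8, 91.3 and 93.5 against 84.2 and 94.7. Ebf1 also held 4 of the 10 equal-length degron-only sites, and Cd79a, which encodes a signalling chain of the B cell receptor, held 3. At the same time 5 sites of Ebf1 were parental only in the full lists.

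Other B-lineage genes also had sites that ranked higher. A site in Pax5, which encodes the factor that maintains B cell identity (chr4:44590063-44590649), ranked at 19.8, 23.8 and 18.0 in the parental and 32.1 and 63.1 in the degron libraries. Bach2, a gene for a transcriptional repressor, had a site at 45.1, 29.0 and 17.9 against 52.9 and 74.0 (chr4:32673515-32674074). The opposite was seen at Ikzf1, the gene for Ikaros, where a CTCF site (chr11:11641721-11643388) ranked at 87.6, 92.2 and 89.4 against 73.0 and 75.3 and 3 sites were parental only.

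Genes of recombination were mixed, and genes of the cohesin machinery had few sites. The 14 V(D)J recombination genes held 17 common sites, of which 4 (23.5%) ranked higher and 5 (29.4%) lower, against 18.6% and 19.5% of all common sites, with a median difference of 0.21 points. Of 69 union sites 5 (7.25%) were parental only, against 5.68% of all sites, and at equal length 5.56% against 5.08%. Dntt, which encodes terminal transferase, had the largest of these differences at a CTCF site (chr19:41127558-41128756), at 81.2, 93.1 and 92.1 in the parental libraries and 59.8 and 25.6 in the degron libraries. A site of Rag1, a recombinase gene, away from CTCF (chr2:101489221-101490008) ranked at 2.91, 1.11 and 10.1 against 15.4 and 27.0. The 15 cohesin and CTCF genes held 14 common sites, all at CTCF, with 0 higher and 3 (21.4%) lower, near the 19.5% of all common sites that ranked lower. Rad21 itself, the tagged gene, had 2 union sites within 5 kb, called by 2, 1 and 0 in the parental and 1 and 0 in the degron lists, too few to compare.

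Cell cycle and survival genes held more sites that ranked lower than higher. Of the 36 common sites of the 20 genes 10 (27.8%) ranked lower and 5 (13.9%) higher, against 19.5% and 18.6% of all common sites, and 17 of their 195 union sites (8.72%) were parental only, against 5.68% of all sites. At equal length 4 of 82 sites (4.88%) were parental only, against 5.08%. Ccnd3, the gene for cyclin D3, had 4 parental-only sites and a common site (chr17:47734216-47735534) that ranked at 58.2, 69.8 and 62.1 against 29.4 and 27.4. It lies in the same stretch of chromosome 17 as Tcfeb. Bcl2l1, the gene for the survival protein Bcl-xL, had 3 parental-only sites and a site (chr2:152591655-152593955) at 69.6, 97.9 and 89.7 against 52.2 and 64.3. Abl1, whose kinase family STI-571 inhibits, had a site (chr2:31642332-31643199) that ranked higher, at 33.0, 33.2 and 15.3 against 64.7 and 72.8.

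A 10 Mb stretch of chromosome 12 that starts at 110000000 was read as a window around the immunoglobulin heavy chain locus. The files' chromosome 12 is longer than that of mm9, so no gene segment is named. The bounds of the locus within the window were not set, so its values are those of the window and not of the locus alone. The window held 191 common sites, with mean ranks of 52.3, 53.5 and 55.0 in the parental libraries and 60.3 and 62.1 in the degron libraries. The lines did not overlap (difference 7.61 points, exact two-sided permutation p = 0.1, the smallest possible), and without parental replicate 1 the difference was 6.95 points (exact permutation p = 0.33). Of the 191 sites 65 (34.0%) ranked higher and 30 (15.7%) lower, against 18.6% and 19.5% of all common sites. On the rest of chromosome 12 the lines did not overlap either, but the difference was 0.95 points over 551 sites (exact permutation p = 0.1).

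Within the window the difference lay in the 5 Mb of higher coordinates, a division made after the values were seen. There 113 sites differed by 13.1 points, 52 (46.0%) ranking higher and 11 (9.73%) lower, while the 78 sites of the other 5 Mb differed by -0.33 points. CTCF sites made up 92.9% of the 113 and 93.6% of the 78. The equal-length lists held 127, 124 and 149 peaks of the parental libraries in these 5 Mb and 184 and 225 of the degron libraries, and 106, 109 and 111 against 97 and 99 in the other 5 Mb. Sequence and GC content were not examined for chromosome 12.

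**Figure D5:**
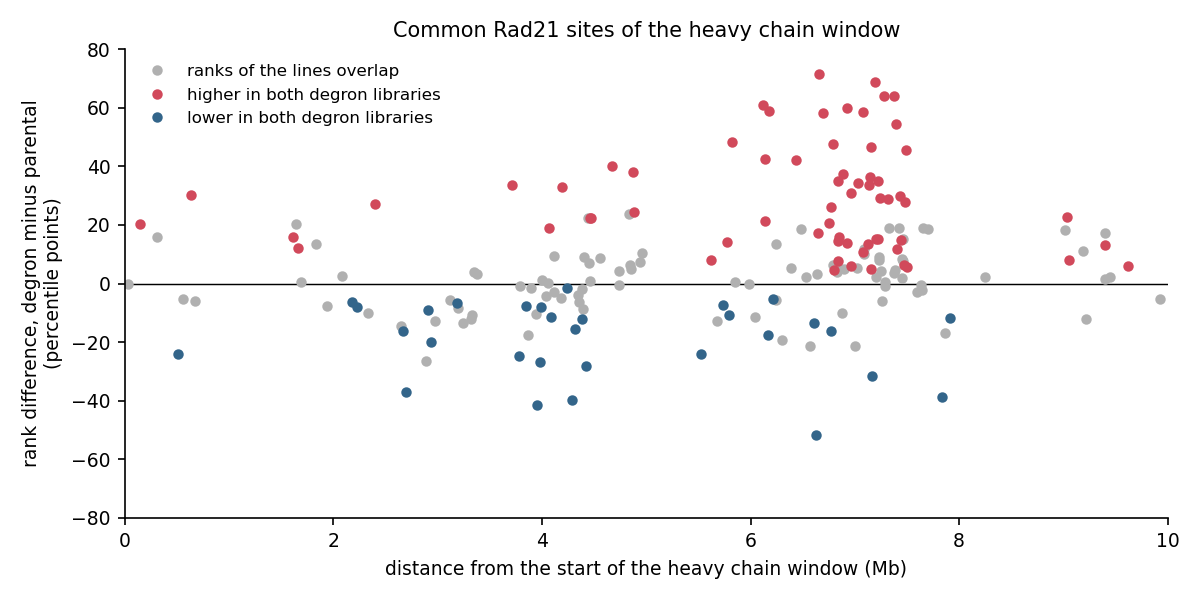
Each point is 1 of 191 common sites of the heavy chain window and gives its rank difference (degron minus parental, in percentile points) by distance from the start of the window in Mb. Sites that ranked higher in both degron libraries (red) crowd the part beyond 5 Mb, where 52 of 113 sites ranked higher and 11 lower (blue).

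Whole chromosomes differed by little. In the equal-length lists 7 of 20 chromosomes took a larger share of peaks in both degron libraries than in any parental library, 8 took a smaller share and 5 overlapped. Chromosome 1 took 6.75%, 6.89% and 6.69% of the parental lists and 7.49% and 7.71% of the degron lists, and chromosome 11 took 7.63%, 7.67% and 7.94% against 7.07% and 6.97%. Spearman's rho between this difference and the median GC content of a chromosome's sites was -0.852 over 19 chromosomes, a description of values that share the same 5 libraries.

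The degron lists lacked part of the sites common to the parental lists. Of the 25030 sites with a peak in every parental library, degron replicates 1 and 2 kept 81.8% and 65.7%. A parental library kept 99.9%, 97.3% and 64.8% of the sites of the other 2 (replicates 1, 2 and 3). Those sites numbered 25045, 25719 and 38623. The site sets are unlike, so the parental values, above all those of replicate 3, cannot be set directly against the degron values. In the degron line 78.3% ± 9.77 (SD, n = 2) were kept at CTCF and 54.7% ± 17.9 away from it. The difference was 23.6 points ± 8.16 (SD, n = 2). In the parental libraries, over their own unlike site sets, it was 0.258, 8.19 and 34.6 points. At equal length the degron libraries kept 83.7% and 81.5% of 16087 sites. Parental replicates 1, 2 and 3 kept 95.6%, 95.0% and 83.5% of 16827, 16928 and 19259 sites, again unlike sets.

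None of the 976 windows of 1 Mb with at least 10 parental sites lost all of them in the degron line. The median kept was 74.0%, and the lowest was 38.5%, for 13 sites on the X chromosome between 71000001 and 72000000, around Flna, which encodes filamin A, and G6pdx. Next were windows around Aqp4 and Kctd1 on chromosome 18 (40.0% of 10 sites) and around Igf2r, an imprinted receptor gene, on chromosome 17 (40.9% of 11 sites). Among windows with degron-only sites, one around Eif2ak3 and Foxi3 on chromosome 6 (70000001 to 71000000) held 3 of them and one around St8sia4 on chromosome 1 held 2. The 3 windows that kept fewest sites held no degron-only site.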

How the data were processed

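Rad21 ChIP-seq broad peak lists of 5 libraries, as deposited, were compared. Per the submitters' processing notes, reads were aligned with Bowtie2 2.2.8 and handled with SAMtools 1.8, with mm9 and hg19 as builds. The peak caller, its threshold and the use of an input are not given in the sources used here. The authors' lists give a fold enrichment (a ratio) and −log10 p and −log10 q values per peak, the lowest −log10 q being 1.33. Fold enrichment was used only to rank, shorten or describe peaks within a list.

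Peaks on human chromosomes were counted separately. Overlapping mouse peaks (at least 1 bp) were joined into union sites. Lists were shortened to 22085 mouse peaks or 1748 human peaks. Ranks are percentiles of fold enrichment over common sites. The lines were tested by exact permutation of the libraries (two-sided), and the code was tested on simulated data. Annotation and sequence came from NCBIM37. Chromosome 12 was left out of both, because its highest peak end, 121611197, lies beyond the reference's 121257530. Motifs were searched in 300 bp windows and GC content was taken over 500 bp.

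The named sites are the 6 strongest of each class of the full lists and the 6 with the largest rank difference each way, with a unique central sequence, and for each listed gene the common site with the largest rank difference. The members and lists were chosen with earlier results of these data known. Alternatives were other libraries, thresholds, list lengths and overlap rules. Analyses used Python 3.11.15, pandas 2.3.3 and scipy 1.17.1.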

Additional observations from a re-analysis of the deposited data

How the results depend on the processing

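Of 158 alternative values 10 changed sign, and 20 counts or untested values moved beyond their spread or by over 1.5 times. The other 128 kept their sign or, for counts and untested values, stayed within those limits. Some of the tested ones did so at a quite different size. The threshold set for p lay below 0.1, the smallest p that 3 against 2 libraries allow. Tested values therefore could not cross it, and only a change of sign could be seen. No exact permutation p fell below 0.1 in any of them, and none could. The spike-in libraries alone and the setting without parental replicate 1 hold the same libraries, and both were counted. The sign changes all concerned the percent of peaks at CTCF sites or at promoters. The percent of peaks at CTCF sites (degron minus parental) was 8.91 in the full lists and -12.7 at equal list length. At equal length it was -10.4 with the spike-in libraries alone and -11.1 with central 200 bp. In the full lists it was -19.0 when peaks had to cover at least 50% of a CTCF site. Narrower peaks meet that rule less easily, so this value depends on peak width as well as on place. At equal length it was -10.4, -11.4 and -16.3 without parental replicates 1, 2 and 3, and -13.6 and -11.8 without degron replicates 1 and 2, and in full lists 1.83 to 14.6 without single libraries. The percent at promoters was -1.95 in the full lists, 0.59 at equal length, -7.52 at a q-value of 0.001 or less, -4.86 at a fold enrichment of 4 or more and -9.27 at equal numbers of human peaks. At equal numbers of human peaks the log2 difference was -0.13 for width and -1.79 for peak number, and the percent at CTCF sites 14.6.

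Degron-only sites numbered 797 with the spike-in libraries alone, 22 at a q-value of 0.001 or less, 1335 at equal length, 1671 at equal length with the spike-in libraries alone, 9 at equal numbers of human peaks, and 193 to 1771 without single libraries. Parental-only sites numbered 1717, 2134 and 9097 under the equal-length, equal-length spike-in and equal-human settings, and 4478 to 12461 without single libraries. Sites of all 5 libraries numbered 7516 at the stricter q-value, 4786 at equal human peaks, 716 with 50% covered and 15999 to 20467 without single libraries. The kept difference between CTCF sites and others was 42.7, 12.4, 33.9 and 9.24 points at the stricter q-value, equal length, equal human peaks and 50% covered, and 17.8 to 29.3 without single libraries. Without single libraries the log2 differences ranged from -1.02 to -0.42 for peak number, -1.88 to -0.91 for covered length, -0.86 to -0.49 for width and -3.07 to -1.17 for mouse per human peaks. The overlap difference ranged from -15.6 to -7.84 points, ranks away from CTCF and promoters from 9.94 to 14.4 and heavy chain ranks from 6.70 to 8.51. The causes were not tested, and peak number has no value at equal list length by construction.

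With a replicate block over replicates 1 and 2, log2 peak number was -1.02, covered length -1.88 and width -0.86, and the percent at CTCF sites was 14.6 and at promoters -1.31 (exact permutation p of 0.5 or more). The labels do not say whether same-numbered libraries were handled together. Rank deviations of same-numbered libraries correlated at 0.0461 and -0.0268 over 15918 sites. These values are not independent, because the deviations of the 2 degron libraries from their mean mirror each other. They cannot decide whether such libraries share a batch. The equal-length comparisons with the spike-in libraries alone, without single libraries and with central 200 bp were chosen after seeing the data, as were the rank and heavy chain comparisons. Peak lists carry no read counts, so depth, which limits how many weak sites a list holds, is unknown.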
